A study of Mus musculus with 10 samples.

Results

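The endothelial cells that line the vessels of bone, and the signals that drive those vessels to grow, were examined through 10 genes, Pecam1, Emcn, Cdh5, Esam, Kdr, Flt1, Tek, Tie1, Vegfa and Angpt2. They were taken by gene symbol from the 38962 genes of a count table, and all 10 passed the filter on low counts that left 22088 genes to test. The table was made from the femurs of 5 Old and 5 Young male C57BL/6J mice with no further genetic change or treatment, 1 library per mouse. Old mice were 22 months of age, came from the colony of the National Institute of Aging and spent their last months in the study's own facility, whereas Young mice were 2 months of age and came from the Jackson Laboratory, so supplier and age cannot be told apart. Femurs were flushed of marrow and pulverized, and bulk RNA was sequenced after depletion of ribosomal RNA and, by the paper's methods, poly-A selection. There were 31788232 to 45075335 counts per Old library and 33447009 to 40395050 per Young library. In such bulk RNA, fewer endothelial cells and less RNA per endothelial cell cannot be told apart.

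Vessels of long bones are not all alike. Capillaries with high surface levels of CD31, the product of Pecam1, and of endomucin, the product of Emcn, are called type H vessels, lie near the growth plate and the inner bone surface, and are known to couple vessel growth to bone formation, while the sinusoids of the marrow carry less of both proteins. VEGF-A, made largely by cells around the vessels, drives sprouting through the receptor encoded by Kdr, Flt1 encodes a receptor that also traps the ligand, and the angiopoietins tune vessel stability through Tek, with Tie1 as its partner.

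The comparison asks how the RNA of these genes differed between Old and Young bone. Vegfa was 1.67-fold higher in Old bone. Emcn fell to 0.660-fold and Angpt2 to 0.740-fold of the Young level. The other 7 genes, among them Pecam1, Cdh5 and both VEGF receptors, did not pass the test, which was edgeR's quasi-likelihood test with p-values adjusted by the Benjamini-Hochberg method over all 22088 genes, at a threshold of 0.05. The 3 genes called out of 10, 1 higher and 2 lower, stand beside 7.29% called among all tested genes, 3.68% higher and 3.61% lower. Of the 22088 genes, 5679 had an unadjusted p under 0.05 in edgeR's test. The other tests run, DESeq2 and limma-voom, called 12.8% and 6.96% of them. Counts of the gene lists below stand beside these shares. The median log2 fold change, Old over Young, was -0.01 for the 10 genes and 0.01 for all tested genes.

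Windows of 250 bases before a RefSeq start site on GRCm38.p6 were read for 6 of the 10 genes, 7 in all, with a second one for Vegfa inside the gene. Most of the Tie1 window, chr4:118489850-118490099, also lies within the span of its gene, which ends at 118490061. The windows of Emcn and Kdr reach a few bases into the spans of theirs. None was used for Pecam1, Cdh5, Esam and Angpt2. The window of Emcn, chr3:137340828-137341077 on the plus strand, and the outer window of Vegfa, chr17:46032378-46032627 on the minus strand, are shown because these genes had the largest changes of the 10 in each direction. Capitals mark GGAA or its reverse complement TTCC, the core that ETS factors bind, a family with many members active in endothelium.
Emcn: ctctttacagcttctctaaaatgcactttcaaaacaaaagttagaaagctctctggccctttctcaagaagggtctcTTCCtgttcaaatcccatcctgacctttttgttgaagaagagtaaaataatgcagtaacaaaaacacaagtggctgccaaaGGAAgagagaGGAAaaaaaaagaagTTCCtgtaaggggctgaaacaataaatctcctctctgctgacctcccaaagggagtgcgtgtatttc
Vegfa: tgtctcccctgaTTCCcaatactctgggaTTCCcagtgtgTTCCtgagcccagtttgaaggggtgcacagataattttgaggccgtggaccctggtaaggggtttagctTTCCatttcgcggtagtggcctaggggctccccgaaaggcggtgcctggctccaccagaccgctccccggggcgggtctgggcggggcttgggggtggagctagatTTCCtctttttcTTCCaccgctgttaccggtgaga
The Emcn window held 4 such cores, the outer Vegfa window 6 and the second Vegfa window, chr17:46025164-46025413, 2. Tie1 held 7, Flt1 and Kdr 4 each, and Tek 2. These letters are common, with at least 1 match in 93.4% of the 32851 windows of the reference and a median of 3. ACGTG or CACGT, the core bound by hypoxia-inducible factors (HIF), was in neither printed window, was found 1 time in the second Vegfa window, and was in 16.6% of all windows. The 2 printed windows of Emcn and Vegfa differed in base composition, with 40.8% and 59.2% G or C. A match is a description of the sequence and no evidence of binding.

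Emcn encodes a mucin-like glycoprotein on the surface of capillary and venous endothelium. The gene (ENSMUSG00000054690.17) lies on chromosome 3 from 137341067 to 137432185, on GRCm38 as all positions here. In Old mice its level was 7.49, 5.51, 5.39, 5.32 and 6.00 CPM, and in Young mice 7.70, 8.59, 11.8, 7.66 and 9.43 CPM (CPM is the depth-scaled unit of read counts, with library sizes corrected by TMM, a trimmed mean of log ratios between libraries). All 5 Old mice lay below all 5 Young mice, although Old 1, the highest of its group, came close to Young 4 and Young 1. Such separation of the groups was seen in 7.80% of all tested genes, and in 2 of the 10. The means were 5.94 ± 0.906 CPM in Old mice and 9.03 ± 1.69 CPM in Young mice (SD, n = 5 each). The log2 fold change was -0.60 ± 0.15 (SE), with a 95% interval of -0.92 to -0.28 (edgeR, adjusted p = 0.0284). Emcn was also the least abundant of the 10 genes for its length, so its counts, 142 to 400 per library, were among the lowest. The call was lost when Old 2, Old 3, Old 5, Young 2 or Young 3 was left out (edgeR, adjusted p = 0.0517 to 0.0658), with log2 fold changes between -0.62 and -0.49 in those fits.

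Pecam1 encodes CD31, an adhesion molecule of endothelial junctions that platelets and leukocytes carry as well. The gene (ENSMUSG00000020717.19) lies on chromosome 11 from 106654217 to 106750628. Its level was 84.5, 77.2, 78.9, 72.0 and 71.7 CPM in Old mice and 87.8, 77.8, 81.5, 73.7 and 89.0 CPM in Young mice. The groups overlapped, with 2 Old mice below all Young mice. A log2 fold change of -0.09 ± 0.09 (SE) was estimated, with a 95% interval of -0.29 to 0.10 (edgeR, adjusted p = 0.548). That interval was the narrowest of the 10 genes. The markers of leukocytes took 0.374% ± 0.206 of counts in Old libraries and 0.339% ± 0.0747 in Young libraries, and those of megakaryocytes 0.0965% ± 0.0325 in Old and 0.0806% ± 0.0223 in Young libraries (SD, n = 5 each). Neither difference passed a two-sided exact permutation test at 0.05 (n = 5 each, p = 0.786 and 0.357). The part of leukocytes and megakaryocytes in the Pecam1 level was not tested. Of 18 leukocyte markers Cd3e, a T cell gene, was higher in Old bone (3.27 ± 1.77 CPM in Old mice, 1.37 ± 0.288 CPM in Young mice, edgeR, adjusted p = 0.0227). The other 17 were not called, among them the abundant Ltf (log2 fold change 0.39), Ngp (0.29) and Lyz2 (0.03). Of the 18 estimates 15 were above 0. Those below 0 were Cd79a, a B cell gene, at -0.45 (edgeR, adjusted p = 0.0542), Csf1r at -0.23 and Cd68 at -0.17. DESeq2 called 3 of the 18 higher and 1 lower, and limma-voom 1 higher and 0 lower. Of all tested genes they called 12.8% and 6.96%. Of the 11 megakaryocyte markers tested, edgeR called 0, with 3 at an unadjusted p under 0.05, DESeq2 called 1 and limma-voom 0, and the most abundant, Itgb3, Itga2b and Ppbp, had log2 fold changes of 0.28, 0.67 and 0.34. An unadjusted p under 0.05 in edgeR's test was held by 5679 of all 22088 genes.

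The 2 genes of the type H definition were then set against the endothelial RNA of each library. It was taken as the mean log2 CPM of 6 pan-endothelial genes, Cdh5, Esam, Kdr, Flt1, Tek and Tie1. The part of skeletal muscle in that mean was not tested. Emcn stood at -2.36, -2.67, -3.04, -2.68 and -2.62 relative to that mean in Old mice, and at -2.29, -2.01, -1.83, -1.95 and -2.13 in Young mice. All Old mice were below all Young mice, and the mean difference was -0.63 on the log2 scale. Pecam1 stood at 1.01 ± 0.13 in Old mice and 1.15 ± 0.13 in Young mice (SD, n = 5 each), a difference of -0.13 with overlapping groups. The ratio of Emcn to Pecam1 CPM was 0.0887, 0.0714, 0.0683, 0.0739 and 0.0836 in Old mice, against 0.0877, 0.110, 0.144, 0.104 and 0.106 in Young mice. In 4 of 5 Old mice this ratio was below that of all Young mice, and Old 1 exceeded Young 1. Set against 29 other pan-endothelial markers in place of the 6, Emcn differed by -0.56 and Pecam1 by -0.06 between Old and Young mice, and Old 1 again met Young 1 for Emcn. Set against Cdh5 alone, the groups overlapped for both genes. The Emcn to Cdh5 ratio was 0.136 ± 0.0257 in Old mice and 0.165 ± 0.0211 in Young mice, with 3 of 5 Old mice below all Young mice, and the Pecam1 to Cdh5 ratio was 1.76 ± 0.303 in Old mice and 1.52 ± 0.208 in Young mice (SD, n = 5 each).

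**Figure D1:**
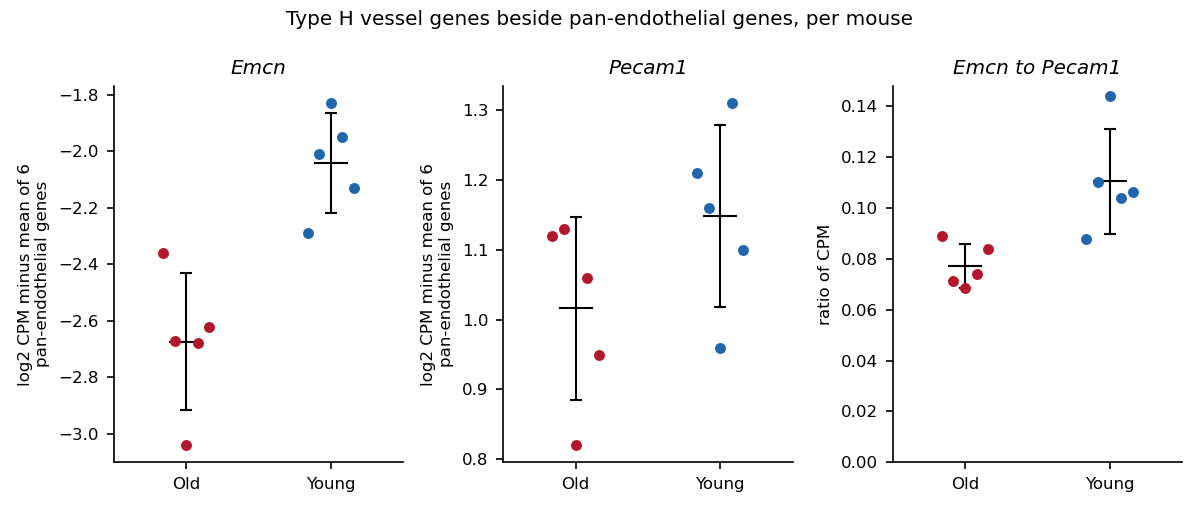
Each point is 1 mouse, with Old mice in red on the left and Young mice in blue on the right, and bars give the mean ± SD of 5 mice. The left and middle panels plot Emcn and Pecam1 as log2 CPM minus the mean log2 CPM of 6 pan-endothelial genes, and the right panel plots the ratio of their CPM; the groups are apart for Emcn and overlap for Pecam1 and, through 1 Old mouse, for the ratio.

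Other cell types of the bone moved with the same contrast. Markers of osteoblasts and osteocytes took 1.55% to 4.06% of counts in Old libraries and 4.78% to 7.95% in Young libraries (two-sided exact permutation test, n = 5 each, p = 0.00794, the smallest this design can give). Of their 14 genes, 5 were lower in Old bone and 0 higher, led by Bglap2 (log2 fold change -1.97), Alpl (-1.18) and Col1a2 (-1.30), with Col1a1 at -1.22 (edgeR, adjusted p up to 0.0267) and Spp1 at -1.17 with no call. Markers of chondrocytes took 0.0319% to 0.0807% of counts in Old libraries and 0.0767% to 0.189% in Young libraries (two-sided exact permutation test, n = 5 each, p = 0.0159), and 6 of the 10 that could be tested were lower. Col11a1 (-2.11), Acan (-3.25) and Hapln1 (-3.52) led them, while the abundant Col2a1 (-0.57) and Comp (-0.15) were not called. The part of these cells in the Emcn difference was not tested.

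Cdh5 and Esam encode adhesion proteins of the junctions between endothelial cells. Cdh5, the gene of VE-cadherin (ENSMUSG00000031871.9, chromosome 8, 104101625 to 104144511), was at 47.3, 51.7, 45.3, 31.9 and 46.8 CPM in Old mice and at 55.3, 58.7, 64.1, 44.5 and 51.1 CPM in Young mice. Only Old 4 lay below all Young mice. Its log2 fold change of -0.30 ± 0.13 (SE), with a 95% interval of -0.58 to -0.01, did not pass the test (edgeR, adjusted p = 0.182). Esam (ENSMUSG00000001946.14, chromosome 9, 37528078 to 37538319) ranged from 24.7 to 37.8 CPM in Old mice and from 21.3 to 37.9 CPM in Young mice, with a log2 fold change of 0.09 ± 0.16 (SE, edgeR, adjusted p = 0.755). The interval of Esam, -0.25 to 0.43, was among the wider of the 10. Across the 10 libraries, after the group means were taken off, the log2 levels of the 2 junction genes had a Pearson r of -0.11.

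Kdr, the main signalling receptor for VEGF-A in endothelium (ENSMUSG00000062960.10, chromosome 5, 75932827 to 75978458), was nearly equal between the ages. It was at 49.0, 46.4, 54.3, 45.9 and 46.9 CPM in Old mice and at 50.4, 44.5, 58.1, 42.1 and 46.5 CPM in Young mice. Old over Young, its log2 fold change was 0.01 ± 0.10 (SE), with a 95% interval of -0.21 to 0.23 (edgeR, adjusted p = 0.978). Flt1 (ENSMUSG00000029648.13, chromosome 5, 147561604 to 147726011) was at 57.6, 45.4, 68.5, 41.3 and 55.2 CPM in Old mice and at 42.0, 41.8, 47.8, 31.1 and 51.6 CPM in Young mice. In 3 of 5 Old mice it exceeded all Young mice. Its log2 fold change of 0.32 ± 0.15 (SE), with a 95% interval of -0.01 to 0.65, did not pass the test (edgeR, adjusted p = 0.204). The ratio of Flt1 to Kdr CPM was 1.10 ± 0.152 in Old mice and 0.888 ± 0.142 in Young mice (SD, n = 5 each), and the groups overlapped.

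Tek, the receptor of the angiopoietins (ENSMUSG00000006386.15, chromosome 4, 94739289 to 94874976), was at 16.1 to 20.1 CPM in Old mice and 15.6 to 22.0 CPM in Young mice. Its log2 fold change was -0.03 ± 0.11 (SE, edgeR, adjusted p = 0.904), with a 95% interval of -0.27 to 0.21. Tie1, which has no known high-affinity ligand of its own and acts with Tek (ENSMUSG00000033191.14, chromosome 4, 118471191 to 118490061), was at 44.1 to 64.4 CPM in Old mice and 35.4 to 60.0 CPM in Young mice. Its log2 fold change was 0.13 ± 0.15 (SE, edgeR, adjusted p = 0.620), with a 95% interval of -0.19 to 0.45. The 4 receptors thus had no call in either direction, and the median log2 fold change of the 6 pan-endothelial genes was 0.05.

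**Figure D2:**
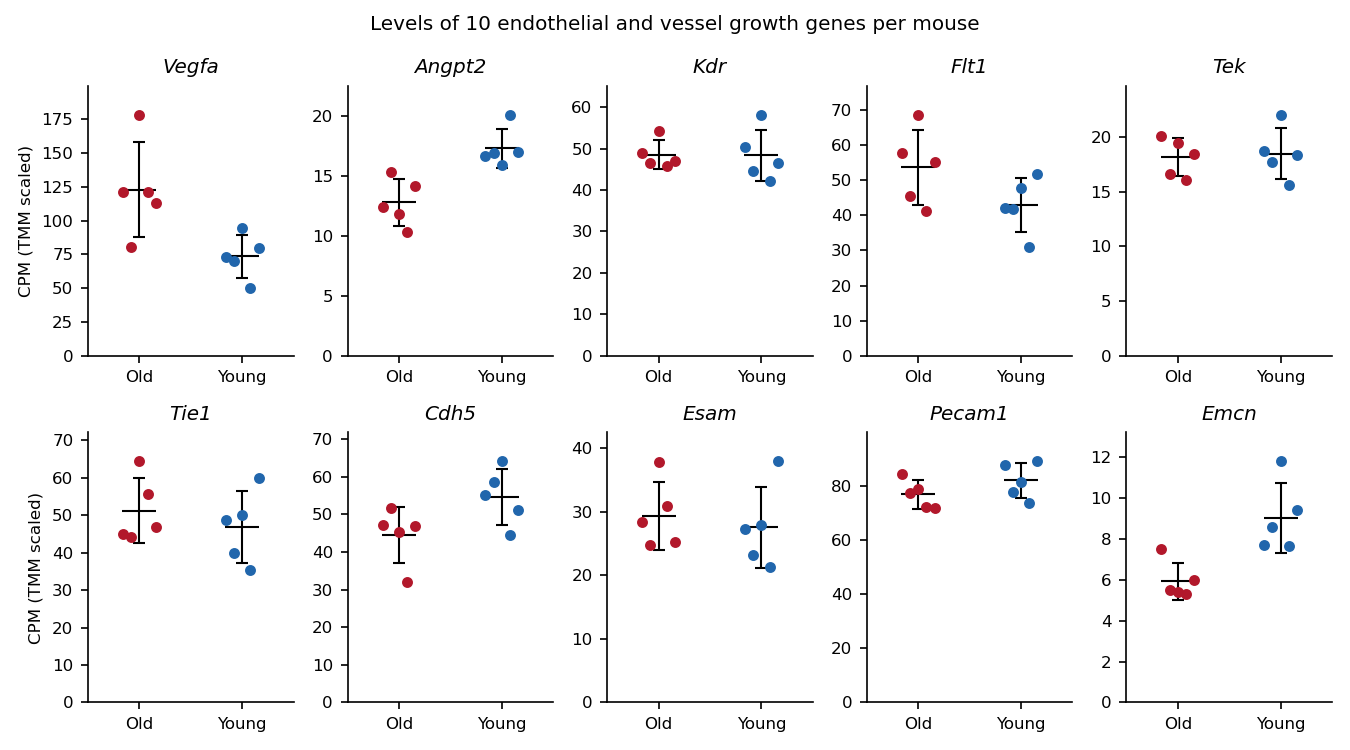
Each panel plots the level of 1 gene in TMM-scaled CPM on an axis that starts at 0, with 1 point per mouse, Old in red on the left and Young in blue on the right, and the mean ± SD of 5 mice. The groups are apart for Angpt2 and Emcn, 4 of 5 Old mice are above all Young mice for Vegfa, and the groups overlap in the other panels.

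Of the ligands, Vegfa encodes VEGF-A, the main growth factor for endothelial cells (ENSMUSG00000023951.17, chromosome 17, 46016993 to 46032369). It was at 121, 80.7, 178, 121 and 113 CPM in Old mice and at 72.7, 70.3, 94.4, 50.0 and 79.8 CPM in Young mice. Old 2 fell among the Young mice, and the other 4 Old mice were above all of them. The means were 123 ± 34.9 CPM in Old mice and 73.5 ± 16.1 CPM in Young mice (SD, n = 5 each). The log2 fold change was 0.74 ± 0.20 (SE), with a 95% interval of 0.31 to 1.17 (edgeR, adjusted p = 0.0420). Relative to Kdr, Vegfa was at 2.46, 1.74, 3.27, 2.62 and 2.42 in Old mice and at 1.44, 1.58, 1.62, 1.19 and 1.72 in Young mice. This ligand to receptor ratio separated all Old from all Young mice, with Old 2 and Young 5 nearly equal.

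Skeletal muscle, which is known to make VEGF-A, was present in these femurs to differing extents. Of its 20 markers, 19 could be tested. None of the 19 passed edgeR's test, 7 had an unadjusted p under 0.05, all of them higher in Old bone, and DESeq2 called 4 and limma-voom 1. Of all 22088 tested genes, 5679 had such a p, and DESeq2 called 12.8% and limma-voom 6.96%. The median log2 fold change of the 19 was 0.57, and 0.41 when libraries were scaled by total counts alone. Together the 20 took 8.07%, 5.83%, 8.82%, 3.74% and 6.18% of counts in Old libraries and 3.31%, 4.78%, 5.79%, 2.69% and 6.24% in Young libraries (two-sided exact permutation test, n = 5 each, p = 0.119). Without the counts of the noncoding RNA Gm26917, they took 8.67% ± 2.76 in Old and 5.69% ± 2.04 in Young libraries (SD, two-sided exact permutation test, n = 5 each, p = 0.103). None of the 19 was at 0 in any library, and the most abundant, Ttn, Myh4 and Atp2a1, had log2 fold changes of 0.81, 0.55 and 0.54 with no call. With the level of these markers as a covariate, the log2 fold change of Vegfa was 0.49 ± 0.17 (SE), no longer past the test (edgeR, adjusted p = 0.112), that of Flt1 was 0.02 (adjusted p = 0.929), and that of Emcn was -0.78 (adjusted p = 0.00546). In the same fit Cdh5 was lower in Old bone, with a log2 fold change of -0.50 (edgeR, adjusted p = 0.0306). Leaving out any 1 library other than Old 2 or Young 3 also ended the call of Vegfa, with log2 fold changes of 0.57 to 0.77 (edgeR, adjusted p = 0.0593 to 0.108).

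**Figure D3:**
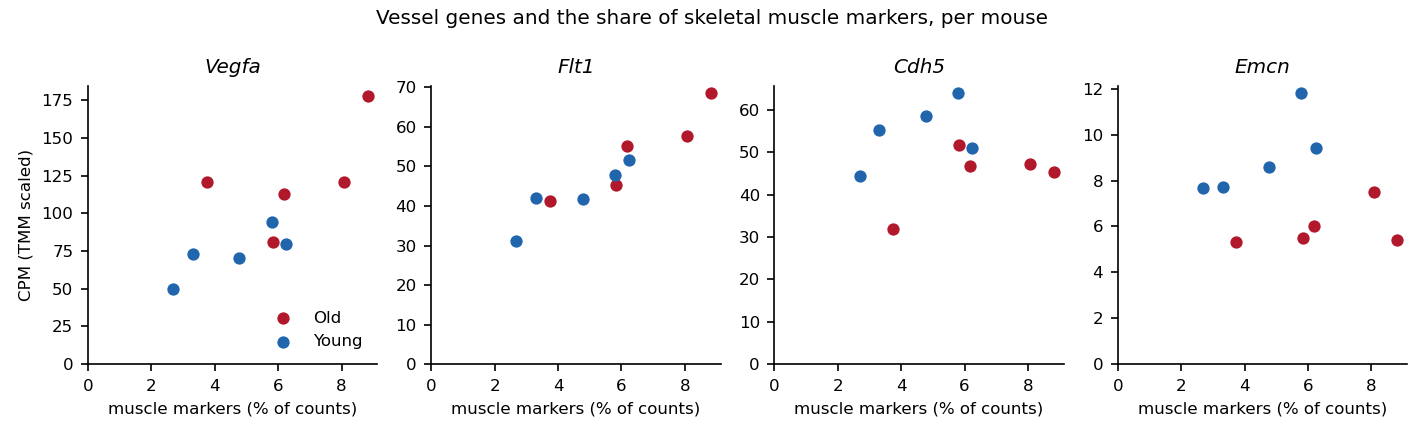
Each point is 1 mouse, Old in red and Young in blue. The horizontal axes give the share of counts taken by 20 skeletal muscle markers in percent and the vertical axes the TMM-scaled CPM of Vegfa, Flt1, Cdh5 and Emcn. Old 3, with 8.82% muscle markers, had the highest Vegfa and Flt1, and Old 4, with 3.74%, had 121 CPM of Vegfa. Old 5 (6.18%) and Young 5 (6.24%) had 113 and 79.8 CPM of Vegfa and 6.00 and 9.43 CPM of Emcn. Old 2 (5.83%) and Young 3 (5.79%) had 80.7 and 94.4 CPM of Vegfa and 5.51 and 11.8 CPM of Emcn. Old 1 and Old 3 lay above the highest Young share, 6.24%. The part of muscle in these differences was not tested.

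Angpt2 encodes angiopoietin 2, a ligand made by endothelial cells themselves that mostly opposes Tek signalling and loosens vessels ahead of sprouting (ENSMUSG00000031465.6, chromosome 8, 18690263 to 18741562). It was at 12.4, 15.3, 11.8, 10.3 and 14.2 CPM in Old mice and at 16.7, 16.9, 15.9, 20.1 and 17.0 CPM in Young mice. All Old mice were below all Young mice. The means were 12.8 ± 1.97 CPM in Old mice and 17.3 ± 1.62 CPM in Young mice (SD, n = 5 each). The log2 fold change was -0.43 ± 0.12 (SE), with a 95% interval of -0.69 to -0.17 (edgeR, adjusted p = 0.0455). The call was close to the threshold and was lost with each library left out other than Old 2 (edgeR, adjusted p = 0.0539 to 0.128, log2 fold changes of -0.47 to -0.36) and with the muscle covariate (-0.40, adjusted p = 0.125). Angpt2 lies within the span of Mcph1 on the opposite strand, and the 2 genes share 0 exonic bases. Whether reads were counted by strand is not stated in the sources used here, and without strand, reads from unspliced Mcph1 RNA and from Angpt2 cannot be told apart.

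**Figure D4:**
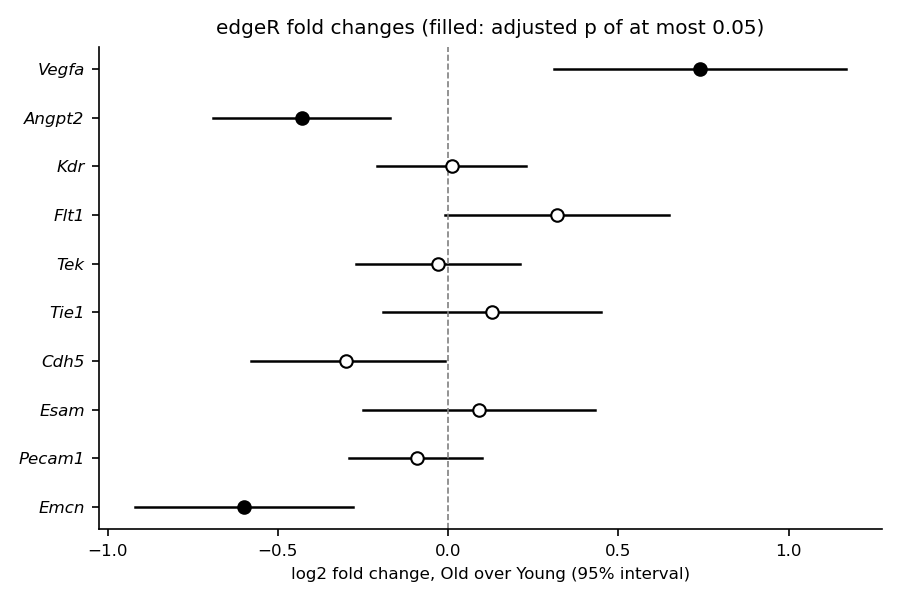
Points give the log2 fold change of each of the 10 genes, Old over Young, and bars its 95% interval from edgeR's fit, with filled points for an adjusted p of at most 0.05. The intervals of Vegfa, Emcn, Angpt2 and Cdh5 leave out 0, and the first 3 of these genes were called.

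Per kilobase of the gene's counted length, the 10 genes spanned more than an order of magnitude. Vegfa was the highest at 28.6 ± 8.15 CPM per kb in Old mice and 17.1 ± 3.76 in Young mice. Pecam1 followed at 12.3 ± 0.854 in Old mice and 13.2 ± 1.04 in Young mice, and next came Cdh5 at 10.6 ± 1.78 in Old and 13.0 ± 1.78 in Young mice, Tie1 at 10.4 ± 1.77 in Old and 9.52 ± 1.95 in Young mice, and Esam at 10.2 ± 1.86 in Old and 9.61 ± 2.24 CPM per kb in Young mice. The ranges of mean ± SD of these 4 overlapped in Old mice, and in Young mice that of Pecam1 lay above those of Tie1 and Esam. The genes were measured in the same libraries, and differences between them were not tested. Kdr was at 5.37 ± 0.382 CPM per kb in Old mice and 5.35 ± 0.695 in Young mice, above Flt1 at 3.97 ± 0.793 in Old and 3.17 ± 0.573 in Young mice, Tek at 3.84 ± 0.370 in Old and 3.92 ± 0.492 in Young mice, and Angpt2 at 3.47 ± 0.533 in Old and 4.69 ± 0.440 in Young mice. The ranges of mean ± SD of Flt1, Tek and Angpt2 overlapped in Old mice, and in Young mice that of Angpt2 lay above that of Flt1. Emcn was the lowest at 1.10 ± 0.168 CPM per kb in Old mice and 1.67 ± 0.312 in Young mice (SD, n = 5 each throughout).

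Among mice of 1 age, the endothelial genes varied together only in part. Over the 10 libraries, with group means taken off, the 28 pairs of the 8 genes other than the ligands had Pearson r between -0.11 and 0.96, with a median of 0.51. Esam and Tie1 were the closest pair (r = 0.96), followed by Kdr and Tek (r = 0.88). Vegfa correlated with the 8 genes at r of 0.16 to 0.80, and with Angpt2 at -0.72. All these values share library and scaling, and they describe 10 libraries only. The genes closest to the mean of the 8 were Trak1 (r = 0.99), Pomgnt1 (0.98), Dmpk (0.98), Myo18b (0.97) and Rrp12 (0.97), and Dmpk and Myo18b are genes of muscle fibres. Those closest to Vegfa were Jtb (r = 0.98), Nova2 (0.96), Arhgef15 (0.96), Ptges3l (0.95) and Abcf3 (0.95), and Arhgef15 is an endothelial gene.

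Around these 10 genes, 68 further genes of 5 endothelial lists were tested, and 7 were lower in Old bone, 0 higher and 61 not called, and the median of their log2 fold changes was 0.05. At an unadjusted p under 0.05 in edgeR's test 12 were lower and 8 higher, DESeq2 called 8 lower and 1 higher, and limma-voom 7 lower and 0 higher. Of all 22088 tested genes, 5679 had such a p, and edgeR called 3.61% lower and 3.68% higher. In either direction DESeq2 called 12.8% of all tested genes and limma-voom 6.96%. The 29 other pan-endothelial markers took 0.0876% ± 0.0122 of counts in Old libraries and 0.0897% ± 0.0158 in Young libraries (SD, two-sided exact permutation test, n = 5 each, p = 0.857). Gm26917 took 14.5% to 31.0% of counts across the 10 libraries, and of the remaining counts these markers took 0.117% ± 0.0180 in Old and 0.111% ± 0.0209 in Young libraries (SD, two-sided exact permutation test, n = 5 each, p = 0.619). Of them, 3 were lower and 0 higher. S1pr1, the receptor for sphingosine 1-phosphate that steadies endothelial junctions, was at 30.4, 30.6, 22.5, 21.3 and 31.6 CPM in Old mice and at 41.7, 44.6, 43.4, 40.3 and 43.1 CPM in Young mice (log2 fold change -0.64 ± 0.12 SE, edgeR, adjusted p = 0.00707). The groups did not overlap, and the Young mice spread over a narrower range than the Old mice. Which cells of the bone gave the S1pr1 RNA, leukocytes among them, was not tested. Clec14a, a C-type lectin family protein of endothelium, averaged 7.63 ± 0.553 CPM in Old mice and 10.9 ± 2.54 CPM in Young mice (log2 fold change -0.52 ± 0.15 SE, edgeR, adjusted p = 0.0487). Its call held in 11 of 21 alternative settings, and in 3 of the 10 fits with 1 library left out (edgeR, adjusted p up to 0.114). Vwf, the gene of von Willebrand factor, was the most abundant of the list at 357 ± 98.3 CPM in Old mice and 242 ± 86.7 CPM in Young mice, and did not pass the test (log2 fold change 0.56 ± 0.24 SE, edgeR, adjusted p = 0.166). By mouse, Vwf was at 262, 350, 402, 499 and 272 CPM in Old and 281, 165, 205, 182 and 375 in Young mice. Itga2b, a megakaryocyte marker, was at 198, 245, 321, 376 and 191 CPM in Old and 198, 123, 149, 117 and 249 in Young mice. The part of megakaryocytes in the Vwf level was not tested. Vwf is counted in the share of the list above, which was not computed without it. That share therefore does not show whether the RNA of the other markers of the list differed. Ptprb was next in level at 106 CPM in Old and 105 CPM in Young mice, and then Eng at 48.0 CPM in Old and 54.9 CPM in Young mice. Their log2 fold changes were 0.02 and -0.20, with no call.

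Both the ligand and the receptor of the apelin pathway were among the 7 lower endothelial genes. Apln encodes apelin, a peptide made by sprouting tip cells, and was at 1.03, 1.41, 0.873, 0.914 and 1.54 CPM in Old mice against 3.03, 2.97, 4.64, 3.28 and 2.81 CPM in Young mice. All Old mice were below all Young mice, and the log2 fold change was -1.51 ± 0.21 (SE, edgeR, adjusted p = 0.00123). Aplnr, its receptor on endothelium, was at 6.60, 7.64, 7.36, 6.16 and 11.8 CPM in Old mice against 17.1, 14.2, 23.5, 12.2 and 11.9 CPM in Young mice, with a log2 fold change of -0.99 ± 0.22 (SE, edgeR, adjusted p = 0.0165). Its groups did not overlap, though Old 5 and Young 5 nearly met. Both calls held in all 21 alternative settings, as did those of S1pr1 and Mmp14. The settings reuse the same libraries and are not independent of each other. Scaling without Gm26917 gave 812 higher and 798 lower calls over all genes, as the main fit did. The endothelial marker covariate was the mean level of a list that holds Aplnr, S1pr1 and Clec14a.

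The 12 tip cell and sprouting genes had a median log2 fold change of -0.18, with 0 called higher and 9 not called. In Old bone 3 were lower, beside 3.61% called lower among all tested genes. Besides Apln these were Mmp14, a membrane-bound matrix protease that osteoblast-lineage cells also make, at 90.6 ± 23.6 CPM in Old mice and 178 ± 35.8 CPM in Young mice (log2 fold change -0.98 ± 0.18 SE, edgeR, adjusted p = 0.00675), and Nid2, a basement membrane nidogen, at 11.9 ± 1.73 CPM in Old mice and 17.6 ± 2.81 CPM in Young mice (-0.56 ± 0.13 SE, edgeR, adjusted p = 0.0250). Nid2 lost its call without Old 3 or Young 3 (edgeR, adjusted p = 0.0504 and 0.0565). Notch1 and Unc5b, the other abundant genes of the list, had log2 fold changes of 0.12 and -0.17 with no call. The share of counts taken by the list was 0.0478% ± 0.00875 in Old libraries and 0.0638% ± 0.00335 in Young libraries (SD, two-sided exact permutation test, n = 5 each, p = 0.0159). Mmp14 carried most of that difference. Without it, a choice made after the data were seen, the list took 0.0392% ± 0.00648 in Old and 0.0451% ± 0.00380 in Young libraries (SD, two-sided exact permutation test, n = 5 each, p = 0.119).

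The 9 other ligands and receptors of the VEGF and angiopoietin family had no call in either direction with edgeR, DESeq2 or limma-voom, 3 had an unadjusted p under 0.05 in edgeR's test, and the median log2 fold change was 0.07. The coreceptor Nrp2 was the most abundant at 297 ± 97.9 CPM in Old mice and 286 ± 62.0 CPM in Young mice, followed by Nrp1 at 48.7 ± 0.854 CPM in Old and 46.4 ± 6.50 CPM in Young mice and by Flt4, the receptor of lymphatic and sinusoidal endothelium, at 27.0 ± 1.91 CPM in Old mice and 33.3 ± 7.04 CPM in Young mice (SD, n = 5 each). None of these 3 passed edgeR's test, with log2 fold changes of 0.06, 0.07 and -0.30 and adjusted p of 0.152 to 0.890. Of 10 arterial genes, Hey1, a Notch target, was lower (4.32 ± 0.510 CPM in Old mice, 6.98 ± 1.68 CPM in Young mice, log2 fold change -0.69 ± 0.16 SE, edgeR, adjusted p = 0.0237), and 9 were not called, among them Ltbp4 (0.34), Efnb2 (-0.06) and Fbln5 (-0.45). The Hey1 call was lost without Young 2 (edgeR, adjusted p = 0.0615). Of 10 sinusoidal and lymphatic genes none was called by edgeR and 4 had an unadjusted p under 0.05, with 1 lower by DESeq2 and by limma-voom. Stab1, Stab2 and Maf, the most abundant of these, had log2 fold changes of 0.00, 0.10 and 0.13. Of 10 genes of pericytes and smooth muscle none was called by edgeR, with 3 at an unadjusted p under 0.05, while DESeq2 called 2 higher and 1 lower and limma-voom none. The most abundant, Des, which muscle fibres share, had 984 ± 362 CPM in Old mice and 513 ± 238 CPM in Young mice (edgeR, adjusted p = 0.126), and Rgs5 and Notch3 had log2 fold changes of -0.27 and 0.21. The counts of these lists stand beside 3.68% called higher and 3.61% lower by edgeR among all 22088 tested genes. Of those genes, DESeq2 called 12.8% and limma-voom 6.96%, and 5679 had an unadjusted p under 0.05 in edgeR's test.

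Vegfa is a classic target of HIF, so 20 other HIF target genes were read beside it. Beside 3.68% of all tested genes called higher and 3.61% lower, 2 of the 20 were higher in Old bone, 1 was lower and 17 were not called. Of their estimates 16 were above 0, the median being 0.29 on the log2 scale. With the muscle covariate 0 were higher in edgeR's test (3 at an unadjusted p under 0.05) and the median was -0.02, and with libraries scaled by total counts alone 0 were higher (1 at an unadjusted p under 0.05) and the median was 0.12. Egln3, an oxygen-sensing hydroxylase, was at 10.6 ± 1.74 CPM in Old mice and 7.31 ± 1.18 CPM in Young mice (log2 fold change 0.54 ± 0.15 SE, edgeR, adjusted p = 0.0446). Slc2a1, the glucose transporter GLUT1, was at 12.5 ± 0.972 CPM in Old mice and 9.49 ± 1.16 CPM in Young mice (0.40 ± 0.11 SE, edgeR, adjusted p = 0.0488). Ddit4, an inhibitor of mTOR signalling that stress and glucocorticoids also induce, moved the other way, at 24.1 ± 6.30 CPM in Old mice and 50.8 ± 19.1 CPM in Young mice (-1.08 ± 0.26 SE, edgeR, adjusted p = 0.0325). These 3 calls were near the threshold. Of 10 fits with 1 library left out, Egln3 kept its call in 2, Slc2a1 in 1 and Ddit4 in 4. The abundant targets Ldha, Pfkfb3 and Egln1 had log2 fold changes of 0.12, 0.35 and 0.43 with no call.

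**Figure D5:**
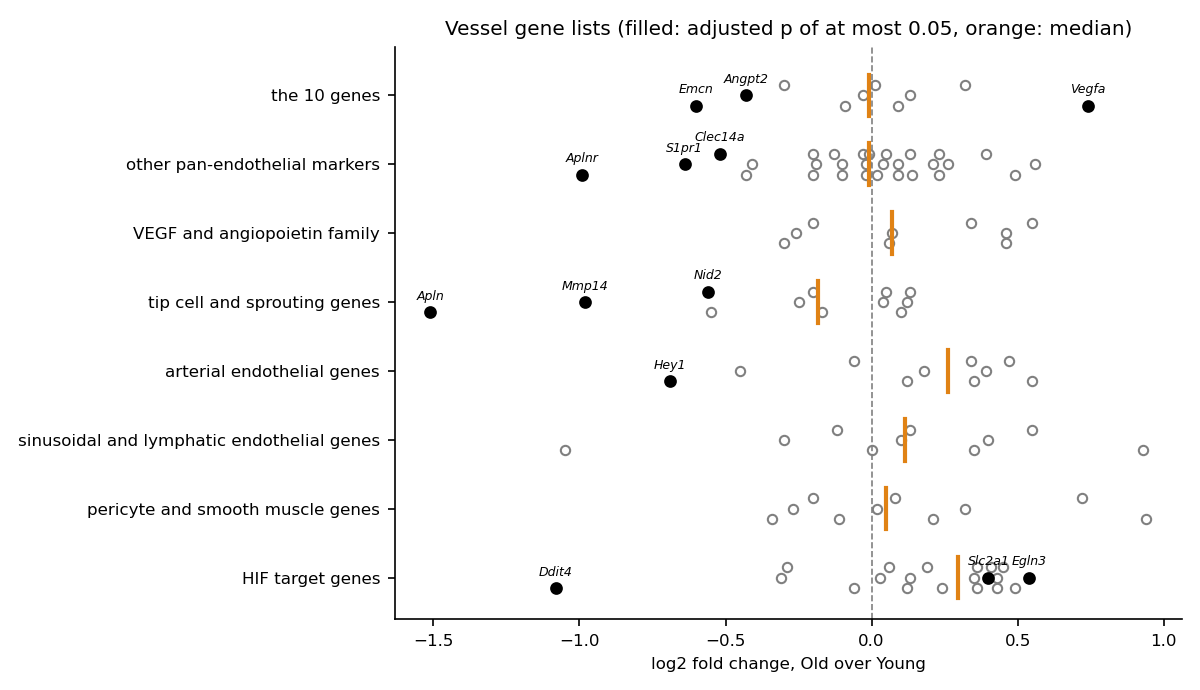
Each point is the log2 fold change of 1 gene, Old over Young, by list, with filled and named points for an adjusted p of at most 0.05 in edgeR's test and an orange bar for the median of the list. The called genes of the 5 endothelial lists lie left of 0, led by Apln at -1.51, while the medians lie between -0.18 and 0.29.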

How the data were processed

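RNA of flushed, pulverized femur cortex from 5 Old and 5 Young mice was sequenced, 1 library per mouse. The authors deposited raw read counts per gene, obtained with Cutadapt for trimming, STAR for alignment to GRCm38.p6 and featureCounts for counting. Although the submitters' labels give a human build, the table's identifiers are those of mouse Ensembl genes. Its annotation release, and whether reads were counted by strand, were not given in the sources used here. All 10 columns were mapped by their labels, and gene lengths are the deposited ones.

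Counts were analysed with edgeR 4.0.16 in R 4.3.3. Low genes were removed with filterByExpr (a count of at least 10 and a total of at least 15), libraries were TMM-scaled, and Old was compared with Young by the robust quasi-likelihood test, adjusted by Benjamini-Hochberg over 22088 genes. Calls are adjusted p values up to 0.05. Intervals are at 95% and come from the fit's degrees of freedom. Log2 CPM used a prior count of 2. Marker shares were compared by exact two-sided permutation over 252 assignments. The steps were tested on simulated data, where 20 of 67 genes changed 1.5-fold were called, 46 of 67 at 2-fold and 62 of 66 at 4-fold. Of the 139 calls in that run, 11 were false. A change of 1.5-fold or less can thus go without a call. Alternatives were DESeq2 1.42.0, limma-voom (limma 3.58.1), other scalings, filters and thresholds, covariates from marker levels, a block for the replicate number, and fits without each library in turn. The median standard error of the 10 genes was 0.141 on the log2 scale.

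The 10 genes and the 13 other lists were chosen with earlier results of these data known. All 10 genes are named, and in each other list up to 3 called genes per direction with the smallest p and the 3 most abundant. Of the 13 lists, those not described in the text are adipocyte markers, of which 0 of 9 were called by edgeR (1 at an unadjusted p under 0.05), 1 by DESeq2 and 0 by limma-voom, with log2 fold changes of 0.79 for Lpl, 0.56 for Plin4 and 0.40 for Fabp4. The 5 genes most like the mean of the 8 endothelial genes, and the 5 most like Vegfa, were taken by Pearson correlation among genes with a mean CPM of at least 1. Promoter sequences are those of RefSeq on GRCm38.p6. Python 3.11.15 (pandas 2.3.3, numpy 2.4.6) served for the tables and matplotlib 3.10.9 for the plots. The imaging, lipid and cell culture data of the study were not analysed here.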

Additional observations from a re-analysis of the deposited data

Results flagged for a closer look

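Young 4 stood apart from the other Young mice in Angpt2, with 20.1 CPM against 15.9 to 17.0 CPM in the other 4, by Dixon's test for a single distant value. Of 20 groups of 5 mice looked at, 1 was picked out in this way, and chance picks about 1 in 20. Without Young 4 the log2 fold change of Angpt2 was -0.37, and it did not pass edgeR's test (adjusted p = 0.128).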

How the results depend on the processing

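Among the 10 genes, 1 was called higher and 2 lower. The count of higher genes was 0 without the filter on low counts and with the muscle covariate, and 2 with the leukocyte or the endothelial marker covariate, where Flt1 joined Vegfa. The count of lower genes was 1 with total counts alone, with no filter, with the replicate block and at 1.5-fold. With 1 library left out, 0 to 1 were higher and 0 to 1 lower. The share of the sprouting list differed by -0.0160 points, and by -0.00595 points without Mmp14, a choice added after the data were seen (exact permutation test, p = 0.119). Of the 68 genes of the other endothelial lists, 0 were higher, but 1 with DESeq2 or at an adjusted p of at most 0.1, 2 with the muscle covariate or the replicate block, 4 with the leukocyte covariate, 3 with the endothelial covariate, and 0 to 1 with 1 library left out. The labels do not say that the replicate number pairs mice or libraries. Same-numbered libraries had correlations of -0.19 to 0.27, with 2 of 5 over 0.1, which cannot show whether libraries were handled in numbered pairs. Under the block only Angpt2 of the 10 genes changed its call (log2 fold change -0.44, edgeR, adjusted p = 0.0744). The median standard error of the 10 genes was 0.123 with the block, beside 0.141 without it. Scaling by total counts alone moved the median of all genes to -0.16 and gave 285 higher and 917 lower calls, beside 812 and 798 with TMM. Over all genes DESeq2 called 2828, the leukocyte covariate 2730, the endothelial covariate 2795, and edgeR with 1 library left out 686 to 1686, beside 1610. The causes were not tested. No called result reversed its direction in the alternatives run.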
